A study of Mus musculus with 6 samples.

Results

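Wnt proteins are secreted, lipid-modified signals that bind Frizzled receptors on neighbouring cells. With the co-receptors Lrp5 and Lrp6 they stop the degradation of beta-catenin, which then joins DNA-bound factors of the TCF/LEF family and switches on target genes. Secreted antagonists bind the ligands (Sfrp proteins, Frzb, Wif1) or the co-receptors (Dkk proteins). In arteries the pathway is known for its part in vascular development, in smooth muscle growth and in the endothelial barrier, and in fat tissue it is known to hold back adipocyte formation.

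The genes described here are the Wnt ligands, their receptors, antagonists and core signal carriers in the mouse aorta. They were chosen by symbol in the annotation of the array: every gene whose name starts with Wnt, Fzd, Sfrp or Dkk followed by a digit, with Lrp5, Lrp6, Frzb, Wif1, Axin1, Axin2, Ctnnb1, Tcf7l1, Tcf7l2, Lef1, Ror1, Ror2, Porcn and Wls. The rule found 50 genes of the 12393 with a symbol of their own on the array. They had 78 probe sets, and the one of highest mean over the arrays stands for each gene.

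Aortas of C57BL/6J mice on a high fat diet (3 arrays) were compared with aortas of C57BL/6J mice on regular chow (3 arrays), on Affymetrix arrays. Each array carried RNA of 3 aortas that were pooled after adventitia and the fat around the vessel had been stripped off, so n = 3 pools per diet, and the error of every value is that between pools rather than between mice. Feeding with the high fat diet lasted 16 to 18 weeks. It started in mice 10 weeks old for high fat replicates 2 and 3, while high fat replicate 1 was labelled with an age of 16 to 20 weeks and no sex. The other mice were labelled male. Chow replicates 2 and 3 came from mice aged 26 to 28 weeks, and chow replicate 1 had no age on its label. The diet's composition was not given in the sources used here, and age and diet cannot be told apart in full from these labels.

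Values are MAS5 signals, the brightness of a probe set on a linear scale after the authors' scaling, and signals of different probe sets are not on one scale. The median signal lay between 58.4 and 66.6 on the 6 arrays. Smooth muscle markers were present (6 genes, 0 means higher on high fat diet). They summed to between 21754 and 23259 on high fat diet, against 20889 to 26634 on chow. Brown adipocyte markers were present too, although the fat had been stripped: their 5 genes summed to between 9008 and 11122 on high fat diet, against 5939 to 7823 on chow, with all 5 means higher. Macrophage markers (6 genes, 6 means higher) summed to between 2014 and 3451 against 1532 to 1925, and cardiac muscle markers (8 genes, 8 means higher) to between 643 and 4951 against 551 to 2440. Skeletal muscle markers (5 genes, 1 mean higher) summed to between 193.8 and 475.3 on high fat diet, against 238.8 to 699.1 on chow. Adventitial fibroblast markers were present as well, although adventitia had been stripped. They (6 genes, 3 means higher) summed to between 7528 and 7941 on high fat diet, against 7865 to 8732 on chow. None of these markers was at 0 on every array. With the mean of the cardiac markers as a covariate, 0 Wnt genes passed the threshold (an adjusted p under 0.05 in limma), and 6 of all probe sets did in place of 10. The part of the smooth muscle, brown adipocyte, macrophage, skeletal muscle and adventitial fibroblast markers in the results was not tested. In pooled tissue RNA, fewer cells of a type and less RNA per cell cannot be told apart.

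**Figure D1:**
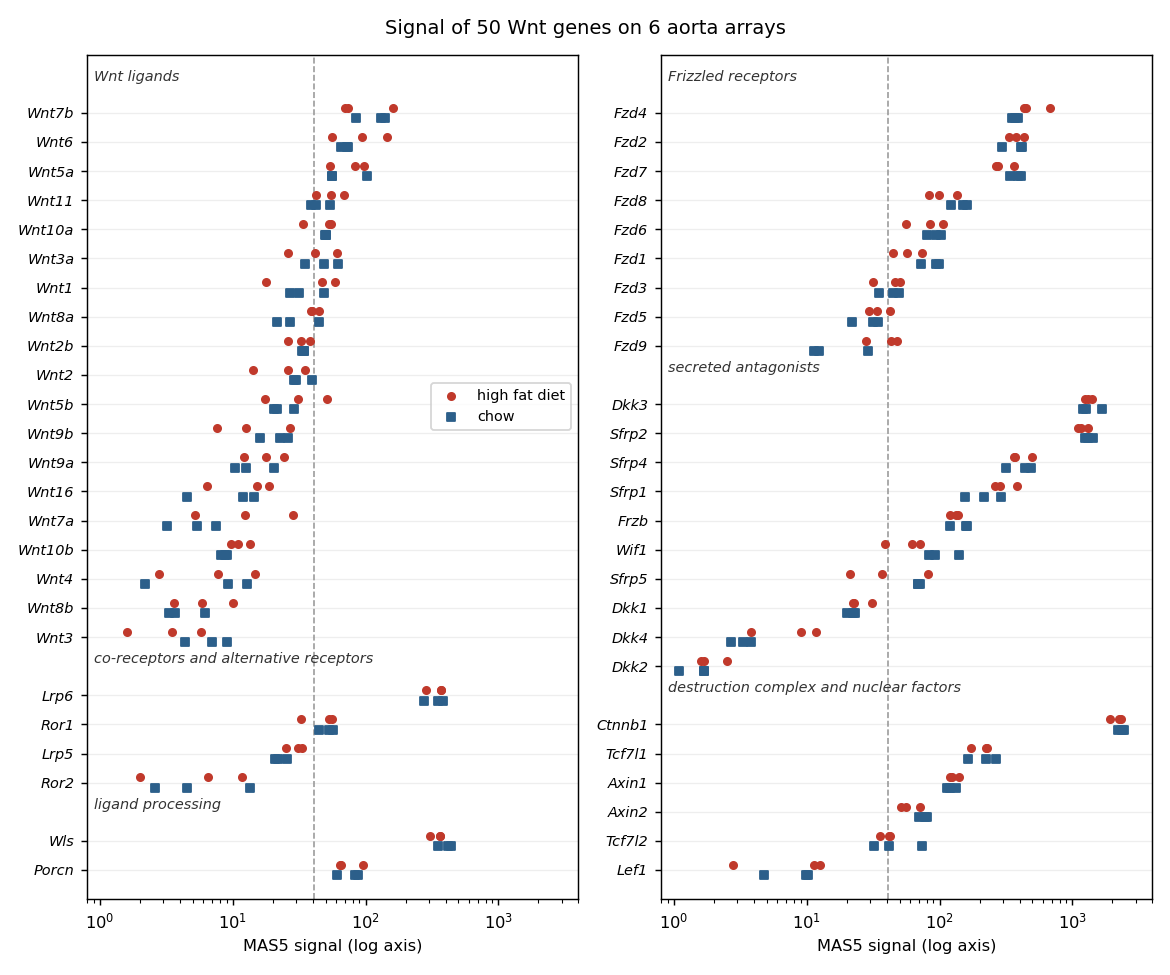
Signal of each of the 50 Wnt genes on each array, on a log axis, by role. Circles are the 3 high fat arrays, squares the 3 chow arrays, and the dashed line is the signal of 40.7 that the mean had to exceed, on the log2 scale, for a gene to be tested; most genes right of it show overlapping diets.

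None of the Wnt genes differed between the diets past the threshold. Of the 50, 29 had a mean signal high enough to be tested and 21 did not. Of the 29, 0 had an adjusted p under 0.05 in limma, where 0.0737% of all 13575 probe sets tested did. At an unadjusted p of 0.05 there were 3: Wif1 and Fzd1, with lower means on high fat diet, and Fzd4, with a higher mean. That is 10.3% of the 29, against 7.03% of all probe sets tested (3.11% with lower and 3.92% with higher means). The smallest adjusted p was 0.535, for Wif1.

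Most of the means lay on the low side. Log2 fold changes (high fat minus chow, of log2(signal + 6)) ran from -0.82 to 0.50, with 20 of 29 below 0 and a median of -0.12. Over all probe sets tested, 51.8% lay below 0 and the median was -0.01. With each array centred on its own median signal, 79.3% of the 29 lay below 0 in place of 69%, since Fzd2, Lrp6 and Sfrp4 then did as well. Without the filter on low signals the median of all 50 was 0.00 and 24 of 50 lay below 0. The mean log2 signal of the 29 was 7.28, 7.25 and 7.18 on the high fat arrays, against 7.36, 7.35 and 7.35 on the chow arrays.

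**Figure D2:**
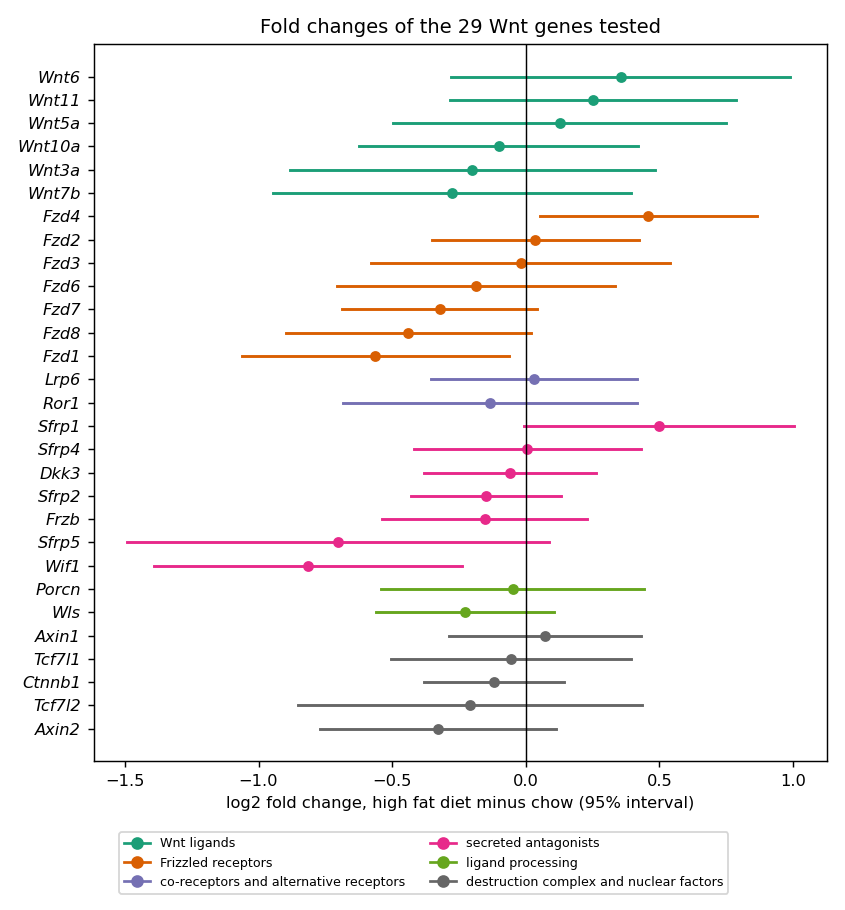
Log2 fold change, high fat diet minus chow, of the 29 tested Wnt genes with 95% intervals from limma, coloured by role. The intervals of Wif1, Fzd1 and Fzd4 leave out 0 before adjustment for the number of probe sets tested. Of the 29 intervals 25 lie between -1 and 1, as do 12443 of those of all 13575 probe sets tested.

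The arrays bound the size of a change more tightly for some genes than for others. Standard errors ran from 0.12 for Ctnnb1 to 0.36 for Sfrp5, with a median of 0.22. The 95% interval lay within a log2 change of 1 in either direction for 25 of the 29 genes, and for 12443 of all 13575 probe sets tested. Fzd1, Wif1, Sfrp1 and Sfrp5 had intervals that reached further. High fat and chow arrays lay fully apart for Fzd4 and Wif1, which is 6.9% of the 29, and for 12.3% of all probe sets tested.

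Because TCF/LEF factors carry the signal to DNA, the promoters of the genes with an unadjusted p under 0.05 are shown. Each is the 250 bases before the start of the gene in RefSeq, build GRCm38.p6, on the strand of the gene, 5′ to 3′. Capitals mark the core letters of a TCF/LEF site, searched as CTTTGA and CTTTGT on both strands. Fzd1 lies at chr5:4758217-4758466 (minus strand), Fzd4 at chr7:89404116-89404365 (plus strand) and Wif1 at chr10:121033754-121034003 (plus strand).
Fzd1: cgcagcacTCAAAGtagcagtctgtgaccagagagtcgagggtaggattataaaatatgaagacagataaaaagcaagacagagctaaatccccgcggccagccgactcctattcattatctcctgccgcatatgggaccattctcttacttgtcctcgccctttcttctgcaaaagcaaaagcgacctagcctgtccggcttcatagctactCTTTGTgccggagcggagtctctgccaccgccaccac
Fzd4: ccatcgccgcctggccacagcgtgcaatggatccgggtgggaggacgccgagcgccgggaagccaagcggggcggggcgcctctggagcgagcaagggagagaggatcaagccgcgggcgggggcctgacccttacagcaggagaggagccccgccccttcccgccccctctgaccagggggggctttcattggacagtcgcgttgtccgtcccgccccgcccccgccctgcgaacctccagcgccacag
Wif1: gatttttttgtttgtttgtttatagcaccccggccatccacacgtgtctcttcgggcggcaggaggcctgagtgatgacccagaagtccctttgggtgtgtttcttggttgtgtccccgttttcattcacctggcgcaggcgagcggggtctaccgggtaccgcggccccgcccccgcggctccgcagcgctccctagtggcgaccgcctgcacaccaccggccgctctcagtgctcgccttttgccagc

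The Fzd1 window held 2 cores, starting 242 and 37 bases before the gene, and the Fzd4 and Wif1 windows held 0. The table of promoters had windows for 34 of the 50 genes, 42 windows in all. Of these 42, 31% held a core, against 27.6% of all 32851 windows of the same length. Axin2 was among the 9 of 16 tested genes with a window whose windows held none. A match is a run of letters and not a shown binding site.

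Frizzled receptors had their largest differences in opposite directions. Of 9 on the array, 7 were tested, 2 with a higher and 5 with a lower mean on high fat diet (6 lower with arrays centred), and the median log2 fold change was -0.19. Fzd4, the receptor for norrin and a Wnt receptor of endothelium, had signals of 682.9, 431.6 and 447.3 on high fat diet, against 386.9, 349 and 371 on chow. All 3 high fat arrays lay above all 3 chow arrays, and high fat replicate 1 was the highest. The means were 520.6 ± 140.8 and 369 ± 19.0 (SD, n = 3 each). The log2 fold change was 0.46 ± 0.18 (SE, 95% interval 0.05 to 0.86, adjusted p = 0.646, limma).

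Of the 6 endothelial markers, 0 passed the threshold. On high fat diet 5 of the 6 had a higher mean and Pecam1 a lower one. Their summed signal was 1242, 1229 and 1003 on high fat diet, against 1013, 971 and 981 on chow. In high fat replicate 3, Cdh5, Tek, Tie1 and Vwf lay above their chow ranges. Kdr lay inside its chow range on that array, and Pecam1 lay below its own. Tie1, a receptor of endothelial cells, had 97.5 ± 24.0 on high fat diet and 55.7 ± 10.8 on chow (log2 fold change 0.73, adjusted p = 0.536). The part of the endothelial markers in the Fzd4 difference was not tested. Without high fat replicate 1 the log2 fold change of Fzd4 was 0.25, and without high fat replicate 2 it was 0.58.

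Fzd1, Fzd7 and Fzd8, receptors that carry Wnt signals to beta-catenin, had lower means on high fat diet. Fzd1 had signals of 44.9, 57.3 and 73.6 on high fat diet, against 99.6, 72 and 94.5 on chow. Chow replicate 2 lay just under high fat replicate 3, and the other arrays were apart. Its log2 fold change was -0.56 ± 0.23 (SE, 95% interval -1.06 to -0.06, adjusted p = 0.647, limma).

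Fzd8 had 83.3, 99.1 and 135.6 on high fat diet, against 121.4, 148.9 and 161.8 on chow, a log2 fold change of -0.44 ± 0.21 (adjusted p = 0.726). Fzd7 had 275.3, 267.9 and 365.6 on high fat diet, against 408.1, 337.7 and 387.4 on chow, a log2 fold change of -0.32 ± 0.17 (adjusted p = 0.745). In both, high fat replicate 3 was the array that overlapped the chow range. With single arrays left out, the log2 fold change ran from -0.73 to -0.40 for Fzd1, from -0.62 to -0.29 for Fzd8 and from -0.46 to -0.24 for Fzd7. For each of them the largest difference was the one without high fat replicate 3, and the smallest was without high fat replicate 1 (Fzd1 and Fzd8) or high fat replicate 2 (Fzd7). Under the alternative settings the unadjusted p lay under 0.05 in 13 of 17 for Fzd1, 5 of 18 for Fzd8 and 1 of 18 for Fzd7, and 0 of these passed the adjustment.

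The means of Fzd2 and Fzd3 lay close together. Fzd2 had 382.1 ± 51.0 on high fat diet and 374.8 ± 67.3 on chow, and Fzd3 had 42.9 ± 10.0 and 43.2 ± 7.4. The log2 fold changes were 0.04, with a 95% interval of -0.35 to 0.42, and -0.02, with an interval of -0.58 to 0.54. Fzd6 had a log2 fold change of -0.19. Fzd5 and Fzd9 had mean signals under the limit for testing, and Fzd9 had 47.9, 43.2 and 27.9 on high fat diet against 12.3, 29.1 and 11.3 on chow.

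**Figure D3:**
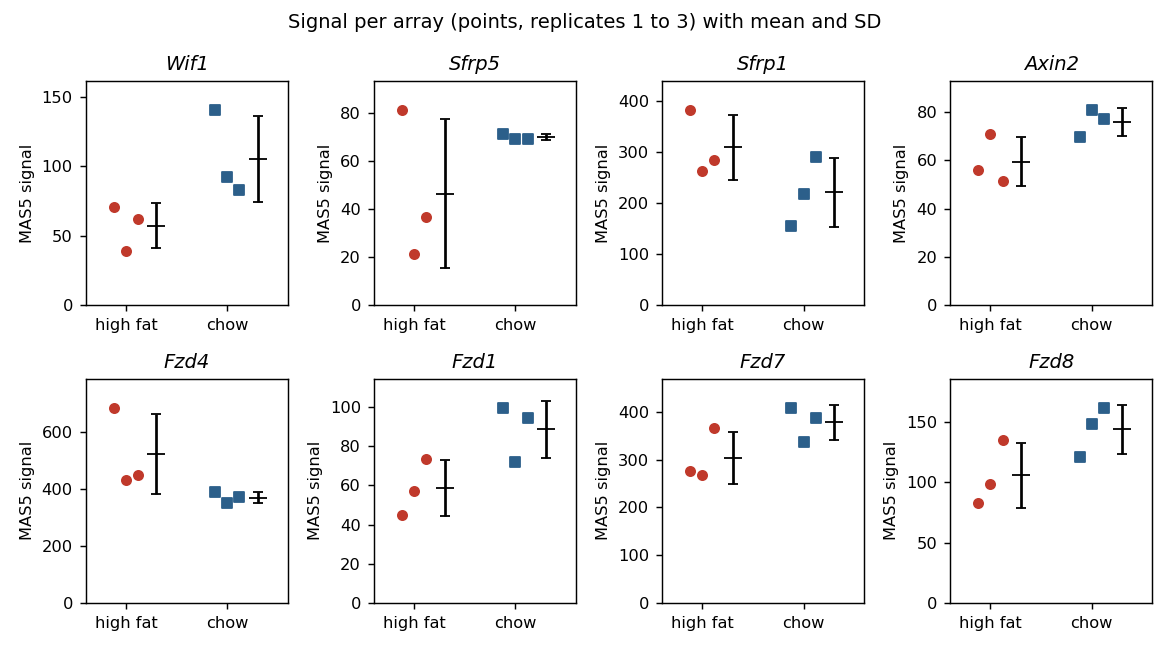
Signal per array of 8 Wnt genes, with high fat diet left of chow. Points are replicates 1 to 3 from left to right, and the bar beside them is the mean with its SD (n = 3); Fzd4 and Wif1 are the genes whose diets do not overlap, and high fat replicate 1 is the highest of the high fat arrays for Wif1, Sfrp5, Sfrp1 and Fzd4.

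Among the tested secreted antagonists, Wif1 and Sfrp5 had the lowest log2 fold changes and Sfrp1 the highest. Of 10 on the array, 7 were tested, 2 with a log2 fold change above 0 and 5 with one below 0, and the median was -0.15. Wif1, which binds Wnt ligands outside the cell, had signals of 70.7, 39.1 and 61.7 on high fat diet, against 140.3, 92 and 83.1 on chow. All 3 high fat arrays lay below all 3 chow arrays. The means were 57.2 ± 16.3 and 105.1 ± 30.8 (SD, n = 3 each). The log2 fold change was -0.82 ± 0.26 (SE, 95% interval -1.39 to -0.24, unadjusted p = 0.00993, adjusted p = 0.535, limma).

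Sfrp5, an antagonist known as a product of white fat in mice, had signals of 81.2, 21.2 and 36.9 on high fat diet, against 71.4, 69.1 and 69.4 on chow. High fat replicates 2 and 3 lay below the chow arrays and high fat replicate 1 above them. The log2 fold change was -0.70 ± 0.36 (adjusted p = 0.744), and it was -1.15 without high fat replicate 1 (adjusted p = 0.265) and -0.31 without high fat replicate 2. White adipocyte markers (4 genes, 3 means higher) summed to between 6046 and 6452 on high fat diet, against 5125 to 7208 on chow. Retn, the adipocyte hormone resistin, was the 1 of the 3 tested white adipocyte markers that passed the threshold. Its signals were 217.5, 215.4 and 217.8 on high fat diet, against 386, 482.2 and 523.8 on chow, and the diets did not overlap (log2 fold change -1.06, adjusted p = 0.0435, limma). The 3 markers with higher means were Adipoq, Fabp4 and Lep, with log2 fold changes of 0.07 for Adipoq and 0.15 for Fabp4. Lep was not tested and had 111.4, 66.7 and 56.2 on high fat diet, against 7.8, 16 and 28.2 on chow. The part of these markers in the Sfrp5 values was not tested.

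Sfrp1, which binds Wnt ligands and Frizzled receptors, had 382.4, 262.8 and 284.7 on high fat diet, against 156.1, 217.8 and 290.4 on chow. Chow replicate 3 overlapped the high fat arrays. The log2 fold change was 0.50 ± 0.23 (adjusted p = 0.709). Of its 4 probe sets, 3 were tested, and the others gave 0.42, from a probe set that can bind related transcripts, and -0.09. The probe set that was not tested had 29.9 ± 24.9 on high fat diet and 43.9 ± 19.7 on chow. The probe sets did not share one direction. Without chow replicate 1 the log2 fold change was 0.28. Under the alternative settings it ran from 0.06 to 0.71.

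Dkk3, a divergent member of the Dkk family, had signals of 1308, 1238 and 1394 on high fat diet, against 1274, 1665 and 1202 on chow. The diets overlapped, with a log2 fold change of -0.06 (95% interval -0.38 to 0.26). Sfrp2 had 1168, 1100 and 1319 on high fat diet, against 1304, 1429 and 1241 on chow, a log2 fold change of -0.15 (95% interval -0.43 to 0.13). These are among the narrower intervals of the 29 genes. Sfrp4 and Frzb had log2 fold changes of 0.00 and -0.15. Dkk1, Dkk2 and Dkk4, also secreted antagonists, had mean signals between 1.7 and 23.6 and were not tested.

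Of the Wnt ligands most had low signals. Of 19 on the array, 6 were tested and 13 were not. The 13 had mean signals between 5.2 and 38.5, where no detection calls were at hand to separate a low level from background. Of the 6 tested, 3 had a higher and 3 a lower mean on high fat diet, and the median log2 fold change was 0.01.

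Wnt7b had 73.9, 160.4 and 70.2 on high fat diet, against 84.8, 130.7 and 139.1 on chow. Wnt6 had 93.4, 146.1 and 55.7 on high fat diet, against 73.3, 65.5 and 72.6 on chow. Both were highest in high fat replicate 2 among the high fat arrays, and the diets overlapped. The log2 fold changes were -0.28 ± 0.30 for Wnt7b and 0.36 ± 0.29 for Wnt6 (SE). With single arrays left out, they ran from -0.64 to -0.08 for Wnt7b and from 0.04 to 0.69 for Wnt6. Both lowest values were those without high fat replicate 2, and both highest those without high fat replicate 3. A second Wnt7b probe set, of low signal and not tested, went the other way. It had 30.0 ± 9.4 on high fat diet and 16.6 ± 7.9 on chow (SD). With all probe sets of a gene averaged, the log2 fold change of Wnt7b was 0.215.

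Wnt5a and Wnt11, ligands known mainly for signalling without beta-catenin, had log2 fold changes of 0.13 and 0.25 (adjusted p = 0.944 and 0.864). Wnt5a had 78.2 ± 22.6 on high fat diet and 71.8 ± 27.0 on chow. Wnt11 had 55.2 ± 13.1 on high fat diet and 45 ± 7.9 on chow. Wnt10a and Wnt3a completed the tested ligands, with log2 fold changes of -0.10 and -0.20.

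Ligand release showed no difference past the threshold. Wls, the carrier that brings Wnt proteins to the cell surface, had 362.6, 361.3 and 308.1 on high fat diet, against 353.5, 440.3 and 418.6 on chow, a log2 fold change of -0.23 ± 0.15 (adjusted p = 0.798). Chow replicate 1 overlapped the high fat arrays. Porcn, the enzyme that attaches the lipid to Wnt proteins, had 74.9 ± 17.8 on high fat diet and 77.3 ± 14.1 on chow, a log2 fold change of -0.05.

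Of the co-receptors, Lrp6 had 285.8, 369.1 and 369.9 on high fat diet, against 274.1, 382.4 and 349.1 on chow. Each diet held 1 lower and 2 higher arrays, and the log2 fold change was 0.03 (95% interval -0.36 to 0.42). Ror1, a receptor kinase for Wnt5a, had 47.5 ± 12.7 on high fat diet and 51.7 ± 6.4 on chow, a log2 fold change of -0.13. Lrp5 and Ror2 had mean signals of 26.4 and 6.8 and were not tested.

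Inside the cell, Ctnnb1, which encodes beta-catenin, a protein of both cell junctions and Wnt signalling, had signals of 2321, 1924 and 2229 on high fat diet, against 2430, 2216 and 2361 on chow. The log2 fold change was -0.12 ± 0.12 (95% interval -0.38 to 0.14, adjusted p = 0.873), the smallest standard error of the 29 genes. Its other probe sets gave -0.19 and -0.37 on the log2 scale, the second with an unadjusted p of 0.048. All 3 probe sets thus had lower means on high fat diet and none passed the adjustment.

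Axin2, a part of the destruction complex that is itself a widely used target gene of beta-catenin signalling, was chosen for description after its values were seen. It had 56.2, 71 and 51.5 on high fat diet, against 69.6, 80.8 and 77.2 on chow. High fat replicate 2 overlapped the lowest chow array. The log2 fold change was -0.33 ± 0.20 (95% interval -0.77 to 0.11, adjusted p = 0.785), and the value lay below 0 in each of the 16 other settings in which it was tested. Axin1, the constitutive scaffold, had 0.07. Tcf7l1 and Tcf7l2, nuclear partners of beta-catenin, had -0.05 and -0.21, and Lef1 had a mean signal of 8.6 and was not tested.

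Other probe sets of the same genes were compared where the array had them. Of the 50 genes, 19 had more than 1 probe set, and 9 had more than 1 that was tested. The tested probe sets shared a direction in 5 of the 9, Ctnnb1, Dkk3, Frzb, Wls and Wnt5a, and did not in 4, Axin1, Fzd2, Sfrp1 and Tcf7l1. Fzd4 and Fzd7 each had a second probe set of very low signal, with means of 13.4 and 5.9, that was not tested, and Fzd1, Fzd8, Wif1 and Sfrp5 had 1 probe set each.

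**Figure D4:**
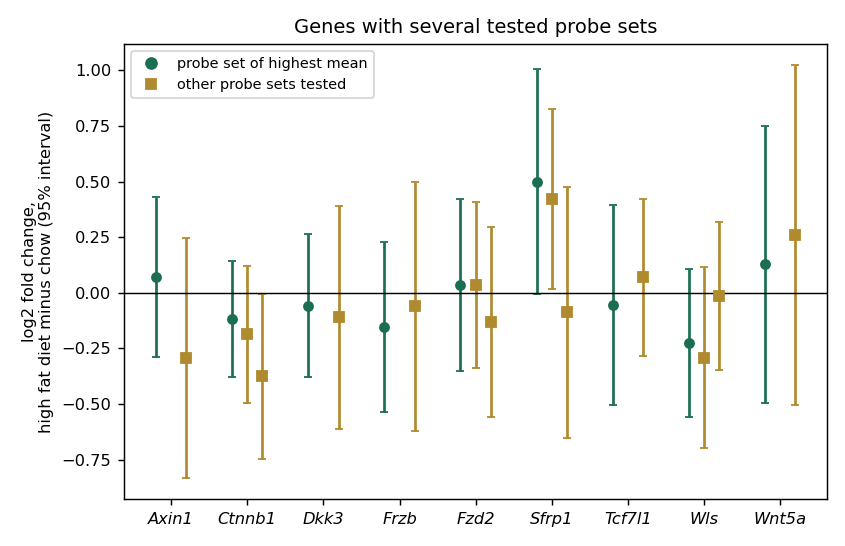
Log2 fold change, high fat diet minus chow, of every tested probe set of the 9 genes with more than 1, with 95% intervals from limma. Circles are the probe sets that stand for the genes and squares the others; the Sfrp1 probe sets lie at 0.50, 0.42 and -0.09 and the Ctnnb1 probe sets at -0.12, -0.19 and -0.37.

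Further genes of the pathway were read from 5 lists, and none passed an adjusted p of 0.05 in limma. An unadjusted p under 0.05 was found for 4 of the 74 genes tested (Ccnd1, Ccn5, Tle1 and Apc2), or 5.41%, against 7.03% of all probe sets tested. Under the scaling alternatives (quantile normalization, arrays centred), the count of log2 fold changes above 0 in each list moved by at most 1 gene. Known target genes (20 on the array, 13 tested) had 6 higher and 7 lower means and a median log2 fold change of -0.03. Ccnd1, cyclin D1, which drives entry into the cell cycle, had 338.9, 635.6 and 567 on high fat diet, against 257.5, 406.2 and 297.4 on chow. High fat replicate 1 overlapped the chow arrays, and the log2 fold change was 0.65 ± 0.24 (adjusted p = 0.630). Ccn5, a matricellular protein of smooth muscle, had 422.2 ± 56.7 on high fat diet and 327 ± 44.0 on chow, a log2 fold change of 0.36 (adjusted p = 0.695). With Axin2 at -0.33, the target genes named here did not share a direction.

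Nuclear factors (15 tested) had 6 higher and 9 lower means and a median of -0.03. Tle1, a co-repressor that TCF/LEF factors recruit, had 183.7, 193 and 186.3 on high fat diet, against 224.9, 312.8 and 277 on chow. The diets did not overlap, and the log2 fold change was -0.51 ± 0.16 (unadjusted p = 0.0102, adjusted p = 0.536). Crebbp, a co-activator, had 0.38 (adjusted p = 0.745).

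Genes of intracellular transduction (17 tested) had 10 log2 fold changes above 0 and 7 below 0, with a median of 0.09. Apc2, a relative of the destruction complex scaffold Apc that is best known from neurons, had 132.7 ± 31.8 on high fat diet and 86.6 ± 5.9 on chow, a log2 fold change of 0.56 (unadjusted p = 0.0183, adjusted p = 0.594). Ppp2r5a, a regulatory subunit of protein phosphatase 2A, had 0.23. Schwann cell markers (3 genes, 3 means higher) summed to between 288.8 and 443.6 on high fat diet, against 201.5 to 268.7 on chow. Among them S100b had 177.7 ± 43.8 on high fat diet and 71.9 ± 4.2 on chow, without overlap. The diets overlapped for Mbp and Sox10. The part of these markers in the Apc2 value was not tested.

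Other secreted and membrane regulators (10 tested) had 1 higher and 9 lower means and a median of -0.13. Notum, an enzyme that removes the lipid from Wnt proteins, had -0.49 ± 0.29 (adjusted p = 0.778), and Gpc3, a glypican, had 128.9 ± 5.1 on high fat diet and 152.1 ± 16.0 on chow, a log2 fold change of -0.22. Sost, sclerostin, an Lrp5 and Lrp6 antagonist best known from bone, was added to the description with its values in view and had 2131, 1298 and 1262 on high fat diet, against 1744, 2140 and 1603 on chow. Its log2 fold change was -0.26 (95% interval -0.70 to 0.18). Genes of the planar polarity and calcium arm (19 tested) had 6 higher and 13 lower means and a median of -0.10, with Prkca at -0.36 and Prickle1 at -0.22 the members of smallest p.

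**Figure D5:**
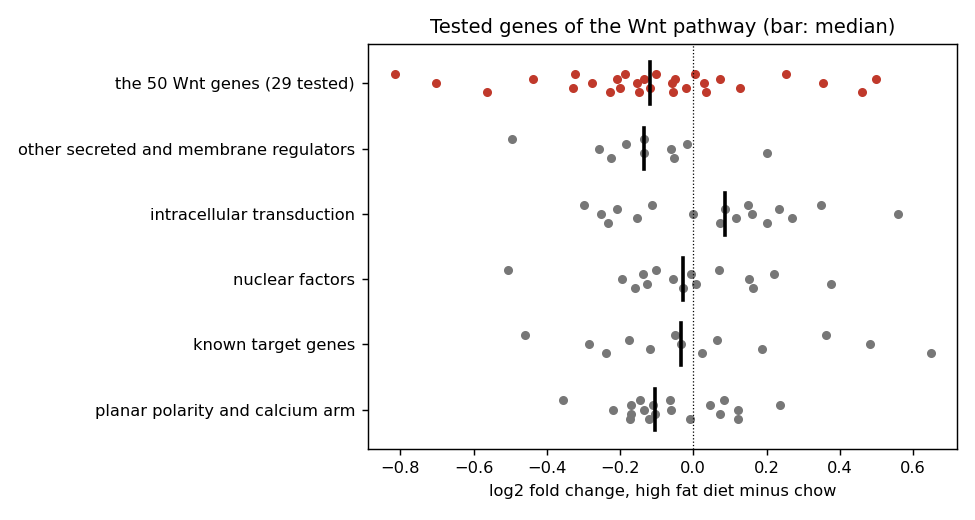
Log2 fold change, high fat diet minus chow, of each tested gene of the 50 Wnt genes (29 points) and of 5 further lists of the pathway, with the median as a bar. The medians lie between -0.13 for other secreted and membrane regulators and 0.09 for intracellular transduction, and no point passed the threshold.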

How the data were processed

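The authors deposited 1 linear signal intensity for each probe set on each array. MAS5 was named in the submitters' processing notes, without version or settings. The trimmed mean (2% off each end) was 150.05 on all 6 arrays, so the authors' scaling was kept. Of 22690 probe sets, 64 were controls and were dropped. The platform annotation gave 1 symbol to 20380 probe sets, and all 50 Wnt genes matched RefSeq by gene ID with no change of symbol. RefSeq promoters were searched in GRCm38.p6.

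Signals were transformed as log2(signal + 6), the pseudocount being the 10th percentile of all signals, so fold changes understate those of low genes. The test covered the 13575 probe sets whose mean log2 value exceeded the 40th percentile, equal to a signal of 40.7. It used limma 3.58.1 (R 4.3.3; lmFit, then eBayes with trend, two-sided, Benjamini-Hochberg over all probe sets kept, threshold 0.05). Intervals are 95% intervals of the moderated fit, unadjusted. The fit was also run on simulated data with changes larger than those of the tested Wnt genes. That run does not bear on changes of their size. Figures were drawn in Python 3.11.15 with matplotlib 3.10.9.

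The Wnt genes and the other lists were chosen with earlier results of these data known. Genes were named by rule: those past the threshold (0), the 5 of smallest p in each direction, and the 2 of highest mean signal of each role; of other lists, the 2 of smallest p. Axin2 and Sost were added after their values were seen. Values of Fzd3, Fzd6, Fzd9, Sfrp4, Frzb, Wnt10a, Wnt3a, Axin1 and Tcf7l2 were also given outside this rule, those of Fzd9 without a test. So were those of some endothelial and white adipocyte markers. Of the 2 Wnt genes read by probe sets that can bind related transcripts, Wnt3 and Wnt5b, none was tested. The number of arrays limits the precision.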

Additional observations from a re-analysis of the deposited data

How the results depend on the processing

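The fit was repeated under 18 alternatives: pseudocounts of 1 and 21, no filter and one at the 60th percentile, quantile normalization, arrays centred on their median, other variance models, weighted arrays, the replicate number as a block, probe sets averaged within genes, the cardiac markers as a covariate, and each array left out. The count of Wnt genes past the threshold was 0 in all 18, and between 1 and 6 had an unadjusted p under 0.05. The lowest share was 6.67% of 15 Wnt genes with the 60th percentile filter, against 7.87% of all probe sets tested. The highest was 20.7% of 29 without high fat replicate 3, against 8.54% of all probe sets. Over the alternatives the share of all probe sets ran from 4.52% to 8.54%. The count of all probe sets past the threshold, 10, became 6 without a filter, with quantile normalization, with the mean of all probe sets and with the cardiac covariate, 5 without the variance trend, 5 with the replicate block, and between 5 and 16 with single arrays left out. The median log2 fold change of the tested Wnt genes, -0.117, was 0.00498 with no filter, -0.0584 with the 60th percentile filter, -0.161 with arrays centred and -0.0723 with the cardiac covariate.

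The deviations of samples of the same replicate number had correlations of 0.03, 0.17 and -0.11 between the diets. Whether these samples shared more than the number was not tested. With the replicate block the Wnt median was -0.117. Of 368 values of the 21 named genes under these alternatives, 342 kept their sign and side of the threshold and 26 turned sign. With arrays centred, Fzd2 had -0.00772 and Lrp6 -0.0130; with the mean of all probe sets, Wnt7b had 0.215, Fzd2 -0.0199 and Tcf7l1 0.00803; with the cardiac covariate, Fzd2 had -0.0215, Lrp6 -0.0497 and Porcn 0.0111; with array weights, Lrp6 had -0.0637 and Porcn 0.00601. With single arrays left out, the range was -0.0445 to 0.397 for Wnt5a, -0.121 to 0.129 for Fzd2, -0.105 to 0.152 for Lrp6, -0.260 to 0.0807 for Ror1, -0.151 to 0.0839 for Dkk3, -0.223 to 0.0425 for Porcn and -0.242 to 0.103 for Tcf7l1. The cause of these shifts was not tested. Wif1 kept an unadjusted p under 0.05 in limma in all 17 in which it was tested (log2 fold change -0.97 to -0.59), Fzd4 in 13 of 18 and Fzd1 in 13 of 17. The smallest adjusted p of Wif1 among these was 0.356. The settings refit the arrays from which these genes were named, or part of them, so they give no independent support. With the mean of all probe sets the log2 fold change of Fzd4 was 0.12. Genes of low signal could not be told from background.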
